A study of Mus musculus with 8 samples.

Results

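Voltage-gated potassium channel and HCN channel genes were read from the full gene table of an RNA-Seq study of mouse temporal association cortex (TeA) by their symbols. Rows were taken whose symbol began with Kcna, Kcnb, Kcnc, Kcnd, Kcne, Kcnf, Kcng, Kcnh, Kcnq, Kcns or Kcnv, or with Hcn, followed by a digit. Of 15437 genes in the table, 39 that matched are described here, of which 38 encode channel subunits. The remaining gene, Kcnq1ot1, is a long noncoding RNA transcribed antisense within the Kcnq1 locus and was kept apart from the channel genes. Of the 38 channel genes, 30 reached the summed level of 20 CPM (read counts scaled to the total of their library) over the 8 libraries that was required for testing, and 8 did not.

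Kv channels are tetramers whose pore opens on depolarization and lets potassium leave the cell. Kv1 and Kv4 subunits carry transient or low-threshold currents, Kv2 subunits the delayed rectifier of the soma and proximal dendrites, Kv3 subunits the fast current that shortens spikes in rapidly firing neurons, and KCNQ subunits the slow M current that restrains repetitive firing. HCN channels open on hyperpolarization and carry a mixed cation current that shapes dendritic integration in cortical pyramidal neurons. The so-called silent subunits of the Kcnf, Kcng, Kcns and Kcnv groups form no channel alone and join Kv2 subunits, whose gating they alter, and the small Kcne proteins are accessory subunits.

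The study compared cells that expressed a destabilized Venus fluorophore under the promoter of the activity-regulated gene Arc with the whole TeA tissue around them. All libraries came from male C57BL/6 mice that carried the Arc-dVenus transgene (+/-), were aged 60 to 90 postnatal days and were killed 6 h after behaviour. Fear-conditioned (FC) mice had received 7 pairings of a tone of 10 s at 6 kHz with a footshock of 0.5 mA, and shock only mice 7 footshocks of 0.5 mA with no tone. Venus+ cells were collected by hand from protease-treated, dissociated TeA and pooled before lysis, and cDNA was amplified from the pools. There were 3 FC pools, of 39, 40 and 23 cells by their titles, and 2 shock only pools, of 30 and 33 cells, against 1 FC and 2 shock only libraries of bulk tissue. Values below are given in this order within each sample type. Neither sorted cells without Venus nor sorted cells of mice that received no shock were among the samples, so that the labelled and sorted state of a cell cannot be told apart from its activity. Replicates were separate libraries, and the p-values measure the spread between these libraries only.

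Libraries held 10223586 to 24151755 counts in Arc-dVenus+ pools and 7110598 to 9846374 in bulk tissue. Between 1500 and 2631 of the genes were at 0 in each pool, against 108 to 131 in each bulk library, so the pools were deeper in counts and poorer in genes. The labels were checked against cell type markers. The 6 inhibitory neuron markers (Gad1, Gad2, Slc32a1, Pvalb, Sst and Vip) summed to 32.3 to 41.4 CPM in the pools, nearly all of it Gad2, against 626 to 643 CPM in bulk tissue, and all 6 fell. Of the 4 excitatory neuron markers, Slc17a7 rose, and their sum, dominated by Camk2a, was 4165 to 5623 CPM in the pools against 6641 to 7519 CPM in bulk tissue. Astrocyte markers summed to 5.33 to 27.4 CPM in the pools against 521 to 547 CPM in bulk tissue, oligodendrocyte markers to 25.7 to 73.0 CPM against 308 to 332 CPM, precursor markers to 0 to 7.58 CPM against 75.4 to 91.4 CPM, microglia markers to 0.373 to 28.4 CPM against 126 to 152 CPM, and endothelial and mural markers to 0.0453 to 0.4505 CPM against 127 to 146 CPM. These lists moved with every comparison of the pools with bulk tissue below, and their part in the channel results was not tested. In such bulk samples a smaller share of cells of a type and less RNA per cell cannot be told apart.

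The tested channel genes were more often higher than lower in Arc-dVenus+ cells. Of the 30 tested, 5 rose, meaning an adjusted p under 0.05 and a change over 2-fold in edgeR's quasi-likelihood test over 12493 genes, and none fell. Among all genes tested 3.13% rose and 6.58% fell. None of the 30 had a negative fold change with an unadjusted p under 0.05, against 10 with a positive one. Over all genes tested, 12.1% had a negative and 12.7% a positive fold change at that level. The exact test, DESeq2 and limma-voom each found 0 channel genes that fell as well. These counts leave out the 8 channel genes under the required level. In a fit without that requirement 3 of them fell, Kcne1l, Kcne4 and Kcnh6, while 1577 of all 15437 genes fell in that fit. The 5 that rose were the Kv2 gene Kcnb2, the silent subunit Kcnv1, the Kv1 gene Kcna4, the Kv4 gene Kcnd3 and the KCNQ gene Kcnq5. The median log2 fold change (log2FC, Arc-dVenus+ over bulk tissue) of the 30 was 0.51, with 25 positive and 5 negative values, beside a median of 0.10 over all genes tested. In 7 of the 30 every pool lay above every bulk library, which held for 5.97% of all genes, and in 1, Kcnd1, every pool lay below, which held for 21.4%. With total counts as the scale, which moved the median of all genes by -0.26, Kcnb2 (log2FC 0.92), Kcnd3 (0.92) and Kcnq5 (0.84) stayed under the 2-fold limit and Kcnv1 and Kcna4 kept the call. Kcnd3 also missed the limit on adjusted p there (0.0586). Together the 38 channel genes took 0.257% to 0.322% of the counts in the pools and 0.199% to 0.208% in bulk tissue.

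**Figure D1:**
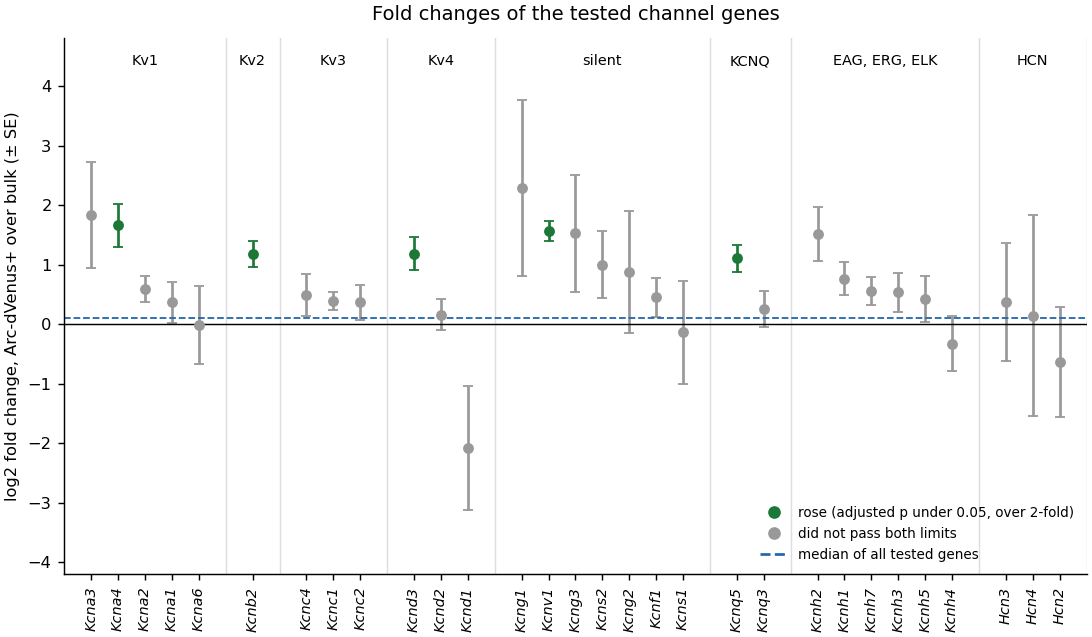
Log2 fold change (Arc-dVenus+ pools over bulk tissue) with its standard error for the 30 tested channel genes, grouped by subfamily, with the median of all tested genes as a dashed line. The 5 genes that rose (green) lie between 1.10 and 1.66 with short error bars, and the widest error bars belong to genes of low level such as Hcn4 and Kcng1.

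Promoter sequences are shown for the channel genes that rose, since they moved in the same direction. They span 250 bases before to 50 bases after a start site and come from RefSeq (GRCm38.p6). Of the 38 channel genes 27 had an entry, with 33 promoters, among them 3 of the 5 that rose. Capitals mark matches to the GC box letters GGGCGG on either strand.
Kcna4, chr2:107290339-107290638, plus strand: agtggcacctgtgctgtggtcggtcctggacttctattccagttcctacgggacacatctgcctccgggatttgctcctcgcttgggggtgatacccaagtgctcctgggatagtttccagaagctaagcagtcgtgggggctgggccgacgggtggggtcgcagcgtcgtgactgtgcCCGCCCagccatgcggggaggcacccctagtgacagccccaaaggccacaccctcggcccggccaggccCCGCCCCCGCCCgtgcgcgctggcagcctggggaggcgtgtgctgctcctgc
Kcnd3, chr3:105451640-105451939, plus strand: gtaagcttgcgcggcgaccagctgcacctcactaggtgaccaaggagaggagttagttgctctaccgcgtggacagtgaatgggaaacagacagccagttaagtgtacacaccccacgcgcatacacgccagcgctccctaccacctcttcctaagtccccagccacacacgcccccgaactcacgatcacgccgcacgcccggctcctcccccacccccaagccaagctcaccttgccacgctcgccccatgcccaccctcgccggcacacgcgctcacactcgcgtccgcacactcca
Kcnq5, chr1:21962601-21962900, minus strand: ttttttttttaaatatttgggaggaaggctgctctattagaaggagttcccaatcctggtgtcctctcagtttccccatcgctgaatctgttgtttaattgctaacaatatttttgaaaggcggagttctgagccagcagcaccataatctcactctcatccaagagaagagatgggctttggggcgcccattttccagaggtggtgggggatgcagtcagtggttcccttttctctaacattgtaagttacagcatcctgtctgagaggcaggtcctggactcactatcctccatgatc
Kcnq5, second start site, chr1:21961893-21962192, minus strand: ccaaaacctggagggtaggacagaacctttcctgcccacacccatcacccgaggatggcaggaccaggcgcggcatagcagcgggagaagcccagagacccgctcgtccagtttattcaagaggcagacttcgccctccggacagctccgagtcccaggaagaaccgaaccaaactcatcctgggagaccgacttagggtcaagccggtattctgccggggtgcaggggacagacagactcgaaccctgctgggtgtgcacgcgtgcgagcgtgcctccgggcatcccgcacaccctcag
Each was searched on both strands for the letters of 7 motifs. The full cAMP response element TGACGTCA (in 1.79% of 32851 promoters of the same length), its core TGACG, which the full element contains (20.8%), the AP-1 letters TGANTCA (7.81%), the Egr letters GCGTGGGCG (0.612%), the TATA box TATAAA (13.6%) and the E-box CACGTG (7.15%) had no match in these 4 windows. The GC box, found in 35.7% of all promoters, matched 3 times in the Kcna4 window, 71 and 2 bases before and 4 bases after the start site, the last 2 of which adjoin, and in neither of the other genes. Over all 33 channel promoters it was found in 21, the core TGACG in 8 and the E-box in 2, while the full response element, AP-1, Egr and TATA letters were in 0. The GC content of the 4 windows was between 46.0% and 67.7%, beside a median of 52.7% over all promoters. A match is a run of letters and not a bound site.

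The lowest adjusted p-values among the channel genes were those of Kcnv1 and Kcnb2, a silent subunit and a Kv2 subunit. Kcnb2 (chr1:15302533-15706448 on mm9, plus strand, 2 adjoining gene records) encodes a subunit of the delayed rectifier. It had 110.4, 81.0 and 108 CPM in the FC pools and 98.9 and 94.0 CPM in the shock only pools, against 57.9, 51.1 and 46.8 CPM in bulk tissue. The groups did not overlap, and Kcnb2 rose 2.27-fold (log2 1.18 ± 0.22 SE, adjusted p = 0.00486).

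Kcnv1 (chr15:44937830-44946480, minus strand) encodes Kv8.1, a silent subunit that in heterologous cells assembles with Kv2 subunits. It had 296, 292 and 249.98 CPM in the FC pools and 271 and 270.1 CPM in the shock only pools, against 104, 128 and 102 CPM in bulk tissue. The pools differed from each other by less than the bulk libraries did relative to their level, with a coefficient of variation (SD over mean) of 6.75% over the 5 pools and 13.1% over the 3 bulk libraries. Kcnv1 rose 2.95-fold (log2 1.56 ± 0.16, adjusted p = 0.000188). Kcnb2 and Kcnv1 passed the test in each of 8 fits that left out 1 library. In a fit of the 4 shock only libraries alone no gene in the table passed, with 3007 at an unadjusted p under 0.05. There Kcnv1 had a log2FC of 1.57 with an adjusted p of 0.0869. Exons of an antisense gene lie opposite 1.72% of the Kcnd3 and 3.07% of the Kcnq5 exonic bases, and whether counting used strand is not stated.

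The other silent subunits did not pass the test. Kcnf1 (Kv5.1) had 61.1, 84.0 and 44.3 CPM in the FC pools and 119 and 93.3 CPM in the shock only pools, against 68.1, 67.9 and 75.7 CPM in bulk tissue. The pools lay on both sides of bulk tissue, and its log2FC was 0.45 ± 0.33 (adjusted p = 0.470). Kcns2 (Kv9.2) had 8.34, 21.5 and 47.7 CPM in the FC pools and 37.8 and 19.95 CPM in the shock only pools, against 13.9, 18.7 and 16.5 CPM in bulk tissue. Only the FC pool of 39 cells was below bulk tissue, and the log2FC was 0.99 ± 0.56 (adjusted p = 0.326). The log2FC of Kcns1 (Kv9.1) was -0.14 ± 0.87, that of Kcng1 (Kv6.1) 2.28 ± 1.48 and that of Kcng2 (Kv6.2) 0.88 ± 1.02. Kcng3 (Kv6.3) had 36.3, 69.4 and 18.9 CPM in the FC pools and 1.04 and 103 CPM in the shock only pools, against 20.8, 19.6 and 16.3 CPM in bulk tissue. Its highest and lowest values were thus both shock only pools, and its log2FC was 1.52 ± 0.98 (adjusted p = 0.401). It passed only without the shock only pool of 30 cells (adjusted p = 0.0477). Among the 7 silent subunits tested, Kcnv1 alone had all 5 pools above all 3 bulk libraries.

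**Figure D2:**
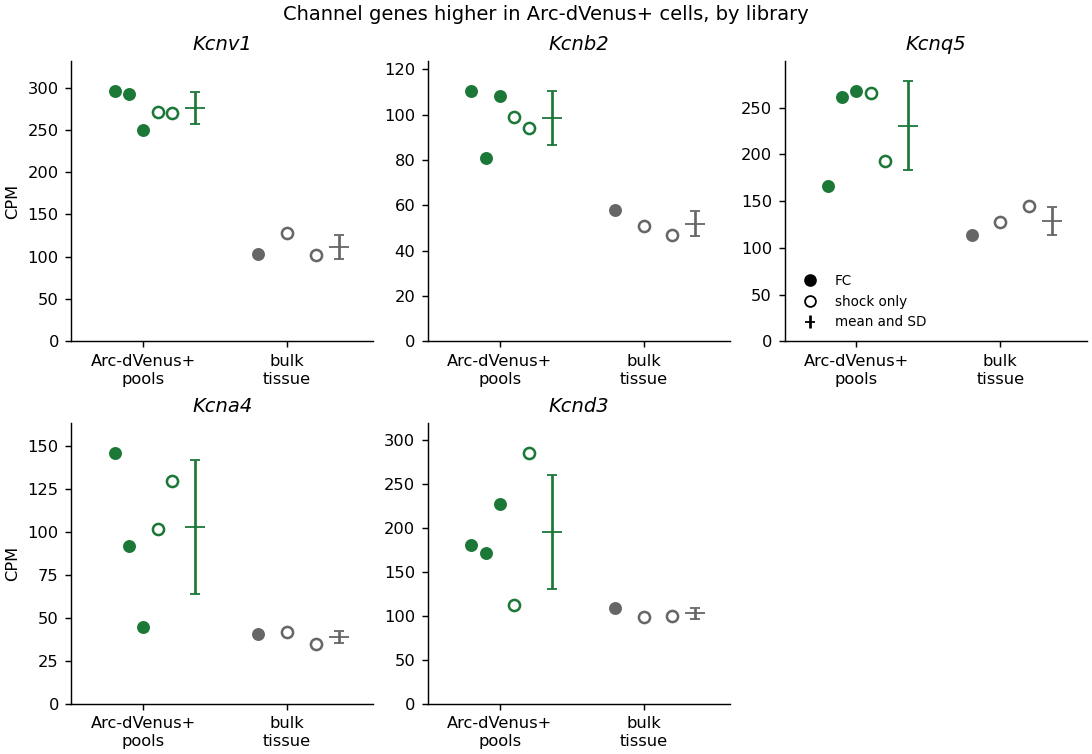
CPM in each library of the 5 channel genes that rose, with Arc-dVenus+ pools in green and bulk tissue in grey, FC libraries filled, shock only libraries open, and the mean with SD beside them. All 5 pools lie above all 3 bulk libraries in each panel, by a wide gap for Kcnv1 and by the least for Kcna4 (44.9 against 41.5 CPM) and Kcnd3 (112.5 against 109 CPM).

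The Kv1 group, which sets spike threshold along axons and at terminals, had 1 member that rose of the 5 tested. Kcna4 (chr2:107130796-107138659 on mm9, plus strand) encodes Kv1.4, the rapidly inactivating member. It had 146, 92.0 and 44.9 CPM in the FC pools and 102 and 129.8 CPM in the shock only pools, against 40.3, 41.5 and 34.7 CPM in bulk tissue. The FC pool of 23 cells came close to bulk tissue and the other 4 lay well above it. Kcna4 rose 3.15-fold (log2 1.66 ± 0.36, adjusted p = 0.0122), but lost the call when any 1 of the 3 bulk libraries was left out, with adjusted p up to 0.0696. In those fits 199 to 250 of all genes rose, against 391 with every library. Kcna1 (Kv1.1) had 145, 259.7 and 263 CPM in the FC pools and 282 and 97.3 CPM in the shock only pools, against 155, 221 and 207 CPM in bulk tissue, and its log2FC was 0.37 ± 0.34 (adjusted p = 0.592). Kcna2 (Kv1.2), its usual partner, had 179, 249 and 145 CPM in the FC pools and 139 and 193 CPM in the shock only pools, against 129.9, 148 and 151 CPM in bulk tissue. The groups overlapped (log2FC 0.59 ± 0.22, adjusted p = 0.112). Kcna3 (Kv1.3), which immune cells also use, had 12.2, 21.9 and 48.6 CPM in the FC pools and 1.32 and 29.1 CPM in the shock only pools, against 8.53, 6.40 and 7.73 CPM in bulk tissue. It lay above bulk tissue in 4 pools and far below in the shock only pool of 30 cells (log2FC 1.84 ± 0.89, adjusted p = 0.236). Without that pool it passed, with a log2FC of 2.24 (adjusted p = 0.0237). Kcna6 (Kv1.6) had a log2FC of -0.01 ± 0.66, and 39.5% of its exonic bases lie opposite the gene Gm17456, from which it cannot be separated if counting ignored strand.

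The Kv4 group, which carries the dendritic A-type current, was split. Kcnd3 (Kv4.3, chr3:105255248-105476920 on mm9, plus strand) had 181, 172 and 228 CPM in the FC pools and 112.5 and 285 CPM in the shock only pools, against 109, 98.8 and 99.9 CPM in bulk tissue. The shock only pools were its lowest and its highest. Kcnd3 rose 2.27-fold (log2 1.18 ± 0.28, adjusted p = 0.0179), and lost the call when any 1 bulk library was left out, with adjusted p up to 0.0918. Kcnd2 (Kv4.2), the main dendritic subunit of hippocampal and cortical pyramidal cells, had 83.0, 97.0 and 90.1 CPM in the FC pools and 85.3 and 48.6 CPM in the shock only pools, against 88.9, 84.4 and 85.9 CPM in bulk tissue. Apart from the shock only pool of 33 cells these values lay within about the same range, and the log2FC was 0.16 ± 0.25 (adjusted p = 0.778). Kcnd1 (Kv4.1) was low everywhere, with 2.23, 1.502 and 0.0905 CPM in the FC pools and 1.24 and 0.293 CPM in the shock only pools, against 3.11, 7.62 and 5.48 CPM in bulk tissue. Every pool was below every bulk library, yet the log2FC of -2.08 ± 1.04 did not pass (adjusted p = 0.254).

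None of the 3 Kv3 genes described here passed the test. Kcnc1 (Kv3.1) and Kcnc2 (Kv3.2) are known for their abundance in fast-spiking inhibitory neurons. Kcnc1 had 202, 204 and 231 CPM in the FC pools and 203 and 201.1 CPM in the shock only pools, against 201.0, 180.4 and 189 CPM in bulk tissue. The pools lay just above bulk tissue and were the most uniform of the tested channel genes, with a coefficient of variation of 6.15%, and the log2FC was 0.39 ± 0.15 (adjusted p = 0.130). In the same pools Pvalb, a marker of fast-spiking cells, was at 0 to 0.0978 CPM, against 12.4 to 19.7 CPM in bulk tissue. Kcnc2 had 62.4, 81.9 and 65.1 CPM in the FC pools and 121 and 124 CPM in the shock only pools, against 90.3, 90.4 and 73.7 CPM in bulk tissue (log2FC 0.36 ± 0.30, adjusted p = 0.535). Kcnc4 (Kv3.4) had a log2FC of 0.49 ± 0.35 (adjusted p = 0.464).

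Of the M-current genes, 1 of the 2 tested rose. Kcnq5 (chr1:21388484-21952023 on mm9, minus strand) had 166, 261 and 268 CPM in the FC pools and 266 and 193 CPM in the shock only pools, against 114, 127 and 145 CPM in bulk tissue. All pools were above all bulk libraries. Kcnq5 rose 2.15-fold (log2 1.10 ± 0.23, adjusted p = 0.00857), and lost the call without the FC bulk library or without the first shock only bulk library, with adjusted p up to 0.0669. Kcnq3, another M-channel subunit of neurons, had 90.7, 105.4 and 57.9 CPM in the FC pools and 64.3 and 43.04 CPM in the shock only pools, against 67.9, 78.5 and 70.6 CPM in bulk tissue. The pools lay on both sides of bulk tissue (log2FC 0.25 ± 0.30, adjusted p = 0.696). The difference between Kcnq5 and Kcnq3 was not tested. The noncoding Kcnq1ot1 had 437, 488 and 370.4 CPM in the FC pools and 312 and 637 CPM in the shock only pools, against 1341, 1197.5 and 1031 CPM in bulk tissue. It fell by 1.15 ± 0.21 on the log2 scale (adjusted p = 0.00425). When the 30-cell shock only pool was dropped, its log2FC was -0.95 (adjusted p = 0.0119), under the 2-fold limit, and in the shock only libraries alone it was -0.88 (adjusted p = 0.293). Kcnq1 itself was at 0 to 5.33 CPM in the pools and 0.984 to 1.62 CPM in bulk tissue.

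The EAG, ERG and ELK channels of the Kcnh group had no member past the test. Kcnh2, which encodes the ERG channel best known from the heart, came nearest. It had 34.2, 84.7 and 35.2 CPM in the FC pools and 25.5 and 34.6 CPM in the shock only pools, against 17.2, 18.1 and 18.3 CPM in bulk tissue. The FC pool of 40 cells stood apart, and the other 4 were also above bulk tissue. The log2FC was 1.52 ± 0.45 with an adjusted p of 0.0501, and 1.114 without the pool of 40 cells (adjusted p between 0.0237 and 0.202 over the 8 fits that left out 1 library). It passed when either shock only pool was left out. Kcnh7, an ERG channel of the brain, had 264, 323 and 276 CPM in the FC pools and 159 and 178 CPM in the shock only pools, against 171, 201.0 and 208 CPM in bulk tissue. The FC pools lay above bulk tissue and the shock only pools near its lower end (log2FC 0.56 ± 0.24, adjusted p = 0.175), and 4.57% of its exonic bases lie opposite the gene Gca. The EAG gene Kcnh1 had 139.5, 255 and 120.2 CPM in the FC pools and 207 and 142 CPM in the shock only pools, against 129, 107 and 131 CPM in bulk tissue. Only the FC pool of 23 cells was within the range of bulk tissue (log2FC 0.76 ± 0.28, adjusted p = 0.105). The other EAG gene, Kcnh5, varied widely, with 152, 294 and 96.1 CPM in the FC pools and 156 and 72.1 CPM in the shock only pools, against 146, 128 and 137 CPM in bulk tissue (log2FC 0.42 ± 0.39, adjusted p = 0.591). The forebrain ELK genes did not pass either. Kcnh3 had a log2FC of 0.53 ± 0.32 (adjusted p = 0.367) and Kcnh4 one of -0.33 ± 0.47 (adjusted p = 0.748).

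The 3 HCN genes described here did not pass the test. Hcn2 had 11.3, 1.88 and 18.9 CPM in the FC pools and 1.61 and 1.47 CPM in the shock only pools, against 12.3, 13.3 and 13.2 CPM in bulk tissue. The FC pools of 39 and 23 cells were near bulk tissue and the other pools were well below it (log2FC -0.64 ± 0.92, adjusted p = 0.752). Hcn4, the sinoatrial pacemaker form, had 0.176, 0 and 8.42 CPM in the FC pools and 5.67 and 0 CPM in the shock only pools, against 2.71, 2.64 and 4.08 CPM in bulk tissue. It was thus present in some pools and at or near 0 in the rest. Hcn3 had a log2FC of 0.37 ± 0.99, and 17.1% of its exonic bases lie opposite the gene Pklr. The median log2FC of the 3 HCN genes was 0.14, and its sign turned between settings.

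The 8 channel genes under the level required for testing each summed to under 20 CPM over the 8 libraries. They were Kcna5, Kcnq1, Kcng4, Kcns3, Kcnh6 and the accessory subunit genes Kcne1l, Kcne2 and Kcne4. Kcnh6 had 0.235, 0.1502 and 0.453 CPM in the FC pools and 0.0414 and 0.0978 CPM in the shock only pools, against 4.20, 1.83 and 1.83 CPM in bulk tissue. All pools were below all bulk libraries. A fit without the level requirement gave it a log2FC of -3.37 (adjusted p = 0.0384). Kcne1l and Kcne4 had no count in any pool, against means of 1.16 and 0.859 CPM in bulk tissue. With 3 counts over the 5 pools as the limit that a count of 0 allows, and bulk counts taken as exact, a bound was set for each. Kcne1l and Kcne4 were at least 28.7-fold and at least 23.7-fold lower in Arc-dVenus+ cells on these terms. The bounds cover counting error in the pools only. The bounds use summed bulk counts, which were 3, 15 and 11 for Kcne1l and 3, 20 and 1 for Kcne4. Most Kcne4 counts thus came from the first shock only bulk library.

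Levels were compared between genes as CPM per kb of exon (GENCODE M1 on NCBIM37, the mm9 build). The deposited counts stand for 1 transcript variant a gene and the lengths join all variants, so genes with several variants can read low on this scale. Among the 38 channel genes described here, Kcnv1 had the highest level in Arc-dVenus+ pools, with a mean of 61.3 CPM per kb, followed by Kcna2 (52.3), Kcnh5 (37.9), Kcnq5 (29.9), Kcnq3 (27.6) and Kcnh3 (26.3). In bulk tissue Kcna2 came first (41.3 CPM per kb), followed by Kcnh5 (33.8), Kcnq3 (27.6), Kcnv1 (24.8), Kcnh3 (21.9) and Kcna1 (21.7). Kcna4 was 11th in the pools, with 21.3 CPM per kb, and 16th in bulk tissue, with 8.04 CPM per kb, while Kcnd3 was 12th with 20.4 and 15th with 10.7 CPM per kb. By summed level per kb, the silent subunits made up 21.4% ± 1.77 (SD, n = 5) of the total of these 38 genes in the pools and 15.6% ± 1.18 (SD, n = 3) in bulk tissue. They ranged between 19.7% and 24.4% in the pools and between 14.6% and 16.9% in bulk tissue, without overlap. Much of this was 1 gene. Kcnv1 had 61.3 of the group's mean of 110.1 CPM per kb in the pools and 24.8 of 59.3 in bulk tissue. The share without Kcnv1 was not computed, so the figures do not show a shift of the whole group. The Kv1 share was 22.0% ± 1.18 in the pools and 21.3% ± 1.22 in bulk tissue, and the Kv4 share 7.12% ± 1.29 in the pools and 7.53% ± 0.272 in bulk tissue. Both of these overlapped between the sample types. These shares are descriptions, since the genes within them are those given above.

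**Figure D3:**
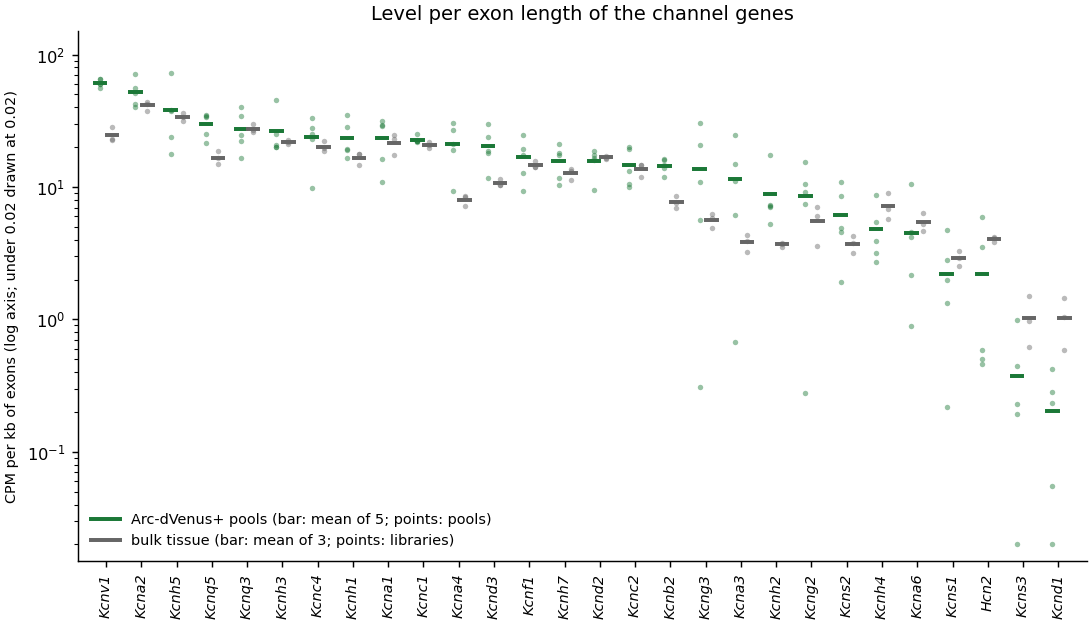
Level per exon length (CPM per kb, log axis) of the channel genes with a mean of at least 1 CPM per kb in either sample type, in order of the mean of the 5 Arc-dVenus+ pools (green), with the mean of the 3 bulk libraries (grey) beside it and points for single libraries. Kcnv1 and Kcna2 lead in the pools with 61.3 and 52.3 CPM per kb, and single pools scatter widely for genes of low level such as Kcng3 and Kcng2.

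The pools varied more between each other than the bulk libraries did. For the 16 tested channel genes with a bulk mean of at least 50 CPM, the coefficient of variation had a median of 32.7% over the 5 pools and 8.11% over the 3 bulk libraries, and was larger over the pools for 15 of the 16. For the 14 tested genes under 50 CPM the medians were 80.8% and 14.4%, and 2 of the 14, Hcn4 and Kcng1, had a pool at 0. The standard error of the log2FC had a median of 0.28 among the 16 and of 0.91 among the 14. Of the 5 genes that rose, 4 were among the 16 and 1, Kcna4, among the 14. Kcnc1, Kcnv1 and Kcnb2 had the smallest spread over the pools, between 6.15% and 12.1%.

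**Figure D4:**
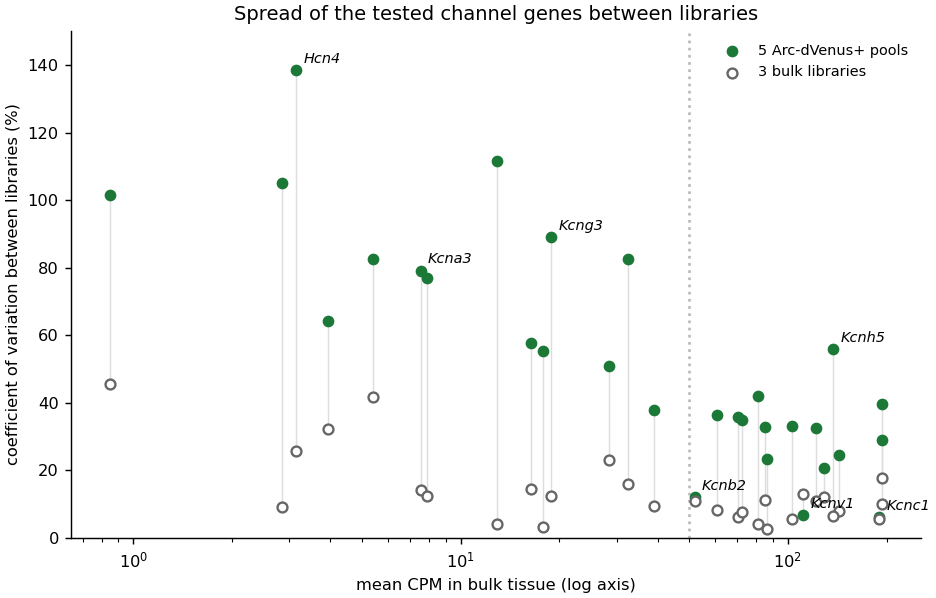
Coefficient of variation between libraries against the mean level in bulk tissue (log axis) for the 30 tested channel genes, with the 5 Arc-dVenus+ pools filled and the 3 bulk libraries open and a dotted line at 50 CPM. The pools spread more than the bulk libraries for most genes, up to 138% for Hcn4, while Kcnc1, Kcnv1 and Kcnb2 lie at 6.15% to 12.1%.

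Channels work with partner proteins, and 19 genes for such partners were compared. They were the Kv1 beta subunits Kcnab1 to Kcnab3, the Kv1 cluster proteins Lgi1, Adam22, Cntnap2, Cntn2 and Dlg4, the Kv4 partners Kcnip1 to Kcnip4, Dpp6 and Dpp10, the Kv2 partner Amigo1, the HCN partner Pex5l, the KCNQ partners Calm2 and Calm3 and the axonal anchor Ank3. Of the 19, 1 rose and 1 fell, while 3.13% of all genes tested rose and 6.58% fell. The median log2FC of the 19 was 0.47, beside 0.10 over all genes. Kcnip4, a calcium-binding Kv4 subunit, had 81.2, 148 and 156 CPM in the FC pools and 199.8 and 144 CPM in the shock only pools, against 91.0, 83.3 and 76.9 CPM in bulk tissue. Only the FC pool of 39 cells overlapped bulk tissue, and Kcnip4 rose 2.10-fold (log2 1.07 ± 0.29, adjusted p = 0.0343), though it lost the call in 5 of 8 fits without 1 library. The Kv4 partners Dpp6 and Dpp10 had log2FC values of 0.76 ± 0.20 and 0.76 ± 0.19 (adjusted p = 0.0349 and 0.0208), and Calm2 of 0.86 ± 0.15 (adjusted p = 0.00407), each under the 2-fold limit. Of the 19 log2FC values, 13 were positive and 6 negative. All pools lay above all bulk libraries for 2 partners and below them for 4, Kcnab1, Kcnab2, Kcnip1 and Cntn2. Over all genes tested these orders held for 5.97% and 21.4%. Kcnip1, with 3 pools at 0, had a log2FC of -4.59 ± 1.68 (adjusted p = 0.109), and it fell with DESeq2 and voom. Kcnab1 had -1.42 ± 1.29 (adjusted p = 0.584) and Kcnab2 -0.75 ± 0.33 (adjusted p = 0.189). Cntn2, an adhesion protein of the axonal Kv1 cluster that oligodendrocytes also make, had 48.7, 59.8 and 38.3 CPM in the FC pools and 72.0 and 40.01 CPM in the shock only pools, against 186, 163 and 162 CPM in bulk tissue. It fell by 1.46 ± 0.25 on the log2 scale (adjusted p = 0.00366) in libraries where the oligodendrocyte marker sum was also lower, and the part of those cells was not tested. Amigo1, which accompanies Kv2 channels, had a log2FC of 0.12 ± 0.19 (adjusted p = 0.783).

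No channel gene passed the test between fear conditioning and footshock alone within the Arc-dVenus+ pools. Of 26 channel genes tested between 3 FC and 2 shock only pools, 0 had an adjusted p under 0.05, the lowest being 0.812, and by the exact test, DESeq2 and limma-voom the count was 0 as well. Among all 10798 genes in this fit 0% passed, while DESeq2 called 61 higher and 35 lower in FC pools and the exact test 4 and 4. At an unadjusted p under 0.05 there were 2 channel genes, beside 6.08% of all genes. Kcnh7 had 264, 323 and 276 CPM in the FC pools against 159 and 178 CPM in the shock only pools (log2 0.73, unadjusted p = 0.0279), and Kcnc2 had 62.4, 81.9 and 65.1 CPM in the FC pools against 121 and 124 CPM in the shock only pools (log2 -0.85, unadjusted p = 0.0463). Kcnv1 had a log2 difference of 0.00 between FC and shock only pools. The log2 differences of the 26 genes lay between -1.59, for Kcna6, and 2.74, for Hcn2 (unadjusted p = 0.0836 and 0.0912). With 3 pools against 2, differences as large as these did not pass, so large differences can be missed. The paper found the sorted profiles of these conditions indistinguishable and states that its experiments lacked the power to exclude differences between them. From a comparison with KCl-induced expression in primary neurons, it proposes that a systematic difference in activity-regulated genes could have been detected. A test of whether the difference between pools and bulk tissue itself depended on conditioning passed for 0 genes in the table, with 308 at an unadjusted p under 0.05, of which 1 was a channel gene, Kcnh7.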

How the data were processed

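RNA-Seq had been made from amplified cDNA of hand-sorted Arc-dVenus+ cells and of TeA tissue. The deposited values are whole-number read counts per gene. According to the methods, the authors aligned reads with RUM at default settings to mm9 and tested with edgeR. They kept reads with a unique alignment and, for each gene, the transcript variant with the highest expression, so exon lengths here, which join all variants, can exceed the length counted. Use of strand is not given in the sources used here. The 8 CPM columns of the deposited table, its fold change and p-value columns and 4 tables of gene subsets, which hold the authors' comparisons, were not used.

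The counts were analysed with edgeR 4.0.16 in R 4.3.3 (quasi-likelihood test, TMM scaling, Benjamini-Hochberg adjustment over all genes with at least 20 CPM in total), as Arc-dVenus+ over bulk tissue with all libraries. Printed CPM were computed from total counts without TMM. Total counts alone as the scale move the median log2 fold change of all genes by -0.26. The script was tested on simulated data. Members and gene lists were chosen with earlier results of these data known. Some genes are not reported here. By rule, every library's value was given for members that passed the test and for the 1 or 2 members of each subfamily with the most counts. Kcna3, Kcnd1, Kcnh2, Kcnh5 and Kcnh6 were added after their values were seen. Alternatives were other scaling, DESeq2 1.42.0, limma-voom 3.58.1, the exact test, no minimum, filterByExpr, conditioning as a covariate, shock only libraries alone and leaving out each library. Exon lengths came from GENCODE M1, and promoters from RefSeq. Bounds cover counting error in the pools only, and amplified reads are not independent molecules.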

Additional observations from a re-analysis of the deposited data

Results flagged for a closer look

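In groups of 5 pools, 7 of 37 members with a count had 1 library far from the other 4 by Dixon's criterion. It flags about 1 group in 20 by chance where values are normally distributed. Kcne2 and Kcng4 had 4 and 3 pools at 0, where that rate need not hold. The 7 are given as a description, and whether they exceed that rate was not tested. The FC pool of 23 cells stood high for Kcnc1 (231 CPM, next 204 CPM) and Kcng4 (5.79 CPM, next 0.0414 CPM). The shock only pool of 30 cells stood high for Hcn3 (8.53 CPM, next 2.64 CPM), Kcne2 (0.621 CPM, the others at 0) and Kcnh3 (168 CPM, next 93.7 CPM). The FC pool of 40 cells stood high for Kcnh2 (84.7 CPM, next 35.2 CPM), and the shock only pool of 33 cells low for Kcnd2 (48.6 CPM, next 83.0 CPM). Of these 7 genes, Kcng4 and Kcne2 were under the level required for testing. The others did not pass the test of Arc-dVenus+ cells over bulk tissue.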

How the results depend on the processing

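Over the 9 alternatives other than leaving out 1 library, the count of channel genes that rose lay between 0 and 6. It was 2 with total counts as the scale, where Kcnb2, Kcnd3 and Kcnq5 lost the call. The count was 3 with voom, where Kcna4 and Kcnd3 lost it, and 0 in the 4 shock only libraries alone. There 8 channel genes above bulk tissue and 1 below had an unadjusted p under 0.05, beside 3007 of 12493 genes in either direction. The count was 6 by RLE scaling, the exact test, DESeq2, no minimum and filterByExpr, which added Kcnh2. Leaving out 1 library gave 2 to 8, lowest when the FC or the first shock only bulk library was dropped and highest when the 30-cell shock only pool was. The number of all 12493 genes that rose moved as well, so these changes were not particular to the channel genes. It was 391 in the main fit, 199 and 204 without those 2 bulk libraries and 608 without that pool. With total counts it was 145, with voom 248, with the exact test 468 and with DESeq2 649. The count that fell was 3 with no minimum (Kcne1l, Kcne4 and Kcnh6), where 1577 of all 15437 genes fell. It was 1 with filterByExpr (Kcnh6), where 1359 of 14335 genes fell, and 0 in every fit without 1 library. Partner genes that rose were 0 with total counts, voom or shock only libraries and 0 to 1 with 1 library left out, and those that fell 2 with DESeq2 or voom, 0 in shock only libraries and 1 to 2 with 1 library left out. The channel median was 0.24 with total counts, 0.89 in shock only libraries and 0.47 to 0.59 with 1 library left out. Some signs turned. With total counts, Kcnd2 (and the Kcnd median) was -0.10, Kcnq3 -0.0071 and Hcn4 (and the Hcn median) -0.14. In shock only libraries, Kcnd2 (and the Kcnd median) was -0.016, Kcnq3 -0.14 and Kcna6 0.89. With voom, Hcn3 was -0.049, Hcn4 -2.05, Kcng3 -0.0073 and the Hcn median -1.25. Kcna6 was 0.029 by RLE scaling and DESeq2, 0.034 with filterByExpr and 0.039 with no minimum. With 1 library left out, the Hcn median lay between -0.78 and 0.46, Hcn3 between -0.46 and 0.60, Hcn4 between -0.78 and 0.46, Kcna6 between -0.54 and 0.25 and Kcns1 between -0.63 and 0.15. No paired analysis was possible because the labels give the pools a cell number and no replicate number, so nothing ties a pool to a bulk library. Voom moved the median of all genes by -0.31, no minimum by -0.10 and the covariate by -0.12.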
